A study of Mus musculus with 38 samples.

Results

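The clustered histone genes are the mouse genes for the core and linker histones that lie together in the Hist1, Hist2, Hist3 and Hist4 clusters. Members were the protein-coding genes whose GENCODE vM21 symbol begins with Hist1h, Hist2h, Hist3h or Hist4h, and no measured value entered that rule. It gave 67 genes, of which 65 were listed among the 47729 genes of the whole marrow table and the 46679 genes of the precursor table. By type these were 6 H1, 18 H2A, 16 H2B, 12 H3 and 13 H4 genes, with 52 on chromosome 13, 10 on chromosome 3, 2 on chromosome 11 and 1 on chromosome 6. Hist1h2bh and Hist1h2bm were in neither table and are not analysed here, and 3 symbols annotated as pseudogenes were not members.

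RNA came from whole marrow, and from cells sorted out of it that lacked lineage markers and carried CD115 (the receptor for M-CSF), which the labels call myeloid/osteoclast progenitors and osteoclast precursors. Female C57BL/6 mice of 6 to 7 weeks were given zoledronic acid (ZA, a bisphosphonate, 100 µg/kg) together with recombinant human G-CSF (a cytokine that drives neutrophil production, 50 µg/kg daily, 3 doses that began 2 days after ZA), G-CSF alone, ZA alone, or neither. The 9 whole marrow libraries were 2 with the combined treatment, 3 with G-CSF, 2 with ZA and 2 untreated. Run 1 of the precursor sequencing gave 8 precursor libraries (3 combined, 3 G-CSF, 1 ZA and 1 untreated), and the labels name no genetic change in any of these groups. The labels number biological replicates without saying that each is 1 animal, so the spread behind every p-value is that between libraries and may be technical.

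Each nucleosome holds H2A, H2B, H3 and H4, and H1 binds the linker DNA where it enters and leaves. Most clustered histone genes are expressed in S phase, when new DNA has to be packed, so marrow, with its many dividing progenitors, is a tissue rich in their RNA. Their mRNAs are unusual in that they mostly carry no poly(A) tail and end in a short stem-loop that is bound by Slbp, whereas longer polyadenylated forms of some members are known from cells that have left the cycle. Genes of 1 type encode nearly the same protein and are alike in sequence, which limits how surely reads can be given to any of them.

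The stem-loop is shown because it sets how these RNAs end, and so how a library preparation can pick them up. The consensus of the histone stem-loop, which leaves 5 of its positions free, was searched on the sense strand and found in the annotated transcripts of 42 of the 65 measured members (64.6%), against 34 of 21884 protein-coding genes outside the clusters (0.155%). The forms found are given as DNA with the 4 loop bases in capitals and the 6 paired bases on either side in lower case:
Hist1h2ap, Hist1h1c and 22 other members: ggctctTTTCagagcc
6 members of H1, H2B and H3: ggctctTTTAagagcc
1 member of H2A: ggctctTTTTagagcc
7 members of H4: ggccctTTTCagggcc
2 members of H4: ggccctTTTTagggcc
2 members of H4: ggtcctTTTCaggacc
The last 3 forms were found in H4 genes alone among the members, and in every form all 6 bases on one side of the loop could pair with those on the other. The consensus itself fixes the letters of most of these pairs, so only the others could have failed. Where a gene had several matches, the one with the most pairs was kept. H4 had a match in 11 of 13 members, H1 in 4 of 6, H3 in 8 of 12, H2A in 11 of 18 and H2B in 8 of 16. In 21 of the 42 the annotated transcript ran on for more than 100 bases past the stem-loop, by 840 bases in Hist1h1c and 2445 bases in Hist4h4, but in Hist1h2ap it ended 3 bases after it. No match says only that these letters are not in the annotated transcript.

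Promoters of 4 members whose levels are described below are shown from RefSeq (GRCm38.p6), from 250 bases before to 50 bases after the annotated start. Capitals mark the TATA box (TATAAA), the box with the letters CCAAT, the octamer (ATTTGCAT) or the H1 box (AAACACA), on either strand, and motifs were searched separately, so overlapping letters would count for each.
Hist1h2ap, H2A, chr13:21833426-21833725, minus strand: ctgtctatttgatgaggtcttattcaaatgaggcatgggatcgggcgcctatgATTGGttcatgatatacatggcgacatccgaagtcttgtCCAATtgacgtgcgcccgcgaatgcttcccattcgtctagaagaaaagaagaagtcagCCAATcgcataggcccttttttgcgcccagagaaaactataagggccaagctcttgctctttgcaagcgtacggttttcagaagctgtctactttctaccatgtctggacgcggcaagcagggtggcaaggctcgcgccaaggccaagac
Hist1h1c, H1, chr13:23738557-23738856, plus strand: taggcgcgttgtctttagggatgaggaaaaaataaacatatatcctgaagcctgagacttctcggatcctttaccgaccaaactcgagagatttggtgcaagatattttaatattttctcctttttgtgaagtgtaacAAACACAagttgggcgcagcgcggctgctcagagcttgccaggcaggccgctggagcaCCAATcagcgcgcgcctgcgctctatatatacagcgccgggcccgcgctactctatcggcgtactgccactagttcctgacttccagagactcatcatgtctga
Hist3h2ba, H2B, chr11:58948661-58948960, plus strand: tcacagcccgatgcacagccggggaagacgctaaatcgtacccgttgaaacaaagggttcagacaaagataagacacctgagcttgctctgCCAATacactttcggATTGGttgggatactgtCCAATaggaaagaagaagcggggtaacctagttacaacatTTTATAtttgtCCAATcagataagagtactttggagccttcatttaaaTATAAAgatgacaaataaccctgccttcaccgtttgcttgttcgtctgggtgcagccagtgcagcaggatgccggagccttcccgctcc
Hist1h4k, H4, chr13:21750504-21750803, minus strand: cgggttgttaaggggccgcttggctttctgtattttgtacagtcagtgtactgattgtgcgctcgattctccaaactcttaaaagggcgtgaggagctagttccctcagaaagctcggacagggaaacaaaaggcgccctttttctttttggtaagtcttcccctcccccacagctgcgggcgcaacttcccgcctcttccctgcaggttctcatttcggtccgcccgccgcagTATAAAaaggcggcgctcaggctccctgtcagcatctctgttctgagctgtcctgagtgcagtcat
RefSeq promoters could be matched for 60 measured members. CCAAT was present in 85.0% of them, against 37.8% of 26963 other RefSeq promoters of the same length, and it was in every H1, H2A, H2B and H3 promoter but in 3 of 12 H4 promoters. TATAAA was present in 58.3% of members against 14.1% of the others. The octamer was found in 7 H2A and 5 H2B promoters (12 of 60 members, against 1.71% of the others), and the H1 box in 5 of 6 H1 promoters and 3 core histone promoters (13.3%, against 7.12%). These are letter matches, which describe the promoters and were not tested for binding.

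Before the results, 3 features of the libraries need to be given. First, untreated marrow replicate 1 stood apart: genes annotated as small RNAs took 39.1% of its TPM, against 6.46% to 12.3% in the other 8 marrow libraries and 16.9% to 42.4% in the 8 precursor libraries of run 1. TPM is a relative level scaled for transcript length, so a larger small RNA share leaves less TPM for the remaining genes together, and fits used counts scaled by TMM, which balances most genes between libraries. Second, the 3 marrow libraries sequenced with run 1 of the precursors were libraries of the marrow table again (G-CSF 2, ZA 2 and untreated 2, with 99.65%, 99.489% and 99.477% of genes within 1%), and they add no replicate. Last, the run 2 libraries did not keep the difference between sources: the library labelled untreated marrow 2 had 118 TPM of H4 genes and the library labelled untreated precursor 2 had 45.8 TPM, against 131 TPM in the run 1 precursor and 43.1 TPM in the run 1 marrow library of the same label. For the libraries labelled G-CSF 2 the values were 136 TPM (run 2 marrow) and 40.8 TPM (run 2 precursor), against 147 TPM in the run 1 precursor and 40.03 TPM in the run 1 marrow library. Whether these run 2 labels were exchanged was not tested, and run 2 is used only as another setting. Counts summed to 6.24 to 16.2 M per library in marrow and 21 to 33.2 M in the run 1 precursors (M for mega), so that a count of 0 allows up to 0.186 to 0.481 CPM in marrow and 0.0904 to 0.143 CPM in precursors, for counting error only.

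Marrow also differed in its cells by treatment. The summed level of 13 erythroid genes was 53126 to 55212 TMM-scaled CPM with the combined treatment, 70323 to 105110 with G-CSF, 137220 to 161340 with ZA and 176200 to 246560 in untreated marrow. None of the 13 was at 0 in any group. In bulk marrow, fewer cells of a type and less RNA per cell cannot be told apart. Both G-CSF groups further differed from the other groups by genes that were on or off: for 50 genes each of the 5 libraries given G-CSF reached 1 TPM and none of the other 4 exceeded 0.1 TPM, for 11 genes it was the reverse, and none of these was a member. Treatment and any other difference between these mice cannot be told apart.

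Hist1h2ap, an H2A gene, carried most of the clustered histone RNA in every library by the level per length. In whole marrow it had 2912 and 2414 TPM with the combined treatment, 2193, 2030 and 2597 TPM with G-CSF, 1890 and 1590 TPM with ZA, and 743 and 1413 TPM untreated. That was 58.3% of all clustered histone TPM in untreated replicate 1, the lowest share, and 79.9% to 90.4% in the other 8. In run 1 precursors it had 714, 1066 and 807 TPM with the combined treatment, 1169, 954 and 1316 TPM with G-CSF, 947 TPM with ZA and 1014 TPM untreated, which was 60.6% to 81.0% of the total. On TPM the marrow libraries given G-CSF, alone or combined, lay above all others, whereas on TMM-scaled CPM the groups overlapped, at 1333 and 1023 CPM (combined), 1374, 1131 and 1304 CPM (G-CSF), 1459 and 1131 CPM (ZA) and 1135 and 950 CPM (untreated). By edgeR it did not pass the threshold in any comparison of treatments, with a log2 difference of 0.28 ± 0.19 (SE; adjusted p = 0.341) for G-CSF against untreated.

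The identity of Hist1h2ap is uncertain: 93.4% of the 31-base words of its transcript also occurred in other annotated genes, most of them in Hist1h2ao, and the words found nowhere else lay in its first 60 of 482 bases. RefSeq names the gene H2ac24. Hist1h2ap lies at chr13:21833026-21833507 on the minus strand (GRCm38), as a single exon. Across the 65 members the median shared part was 58.9%, with 3.73% in H1, 74.9% in H2A, 57.8% in H2B, 63.1% in H3 and 47.9% in H4, and 40 members shared at least 50.0%. H1 genes (at most 34.7% shared) and some long members such as Hist2h2be (2.82% shared) can thus be told apart best. By type, the median was highest in H2A. Length alone does not separate members: Hist2h3c1 (1825 bases) was 100% shared, Hist1h2bq (2015 bases) 98.3% and Hist1h2br (2197 bases) 89.5%.

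**Figure D1:**
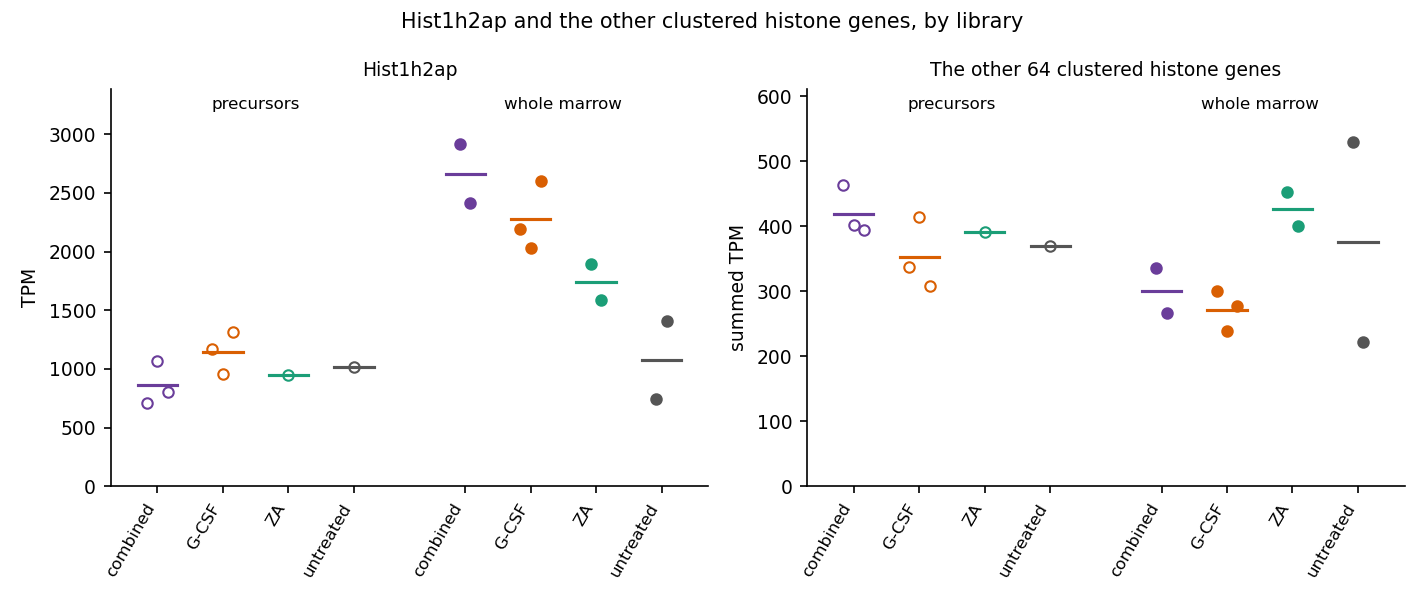
Level per library in TPM (y axis) of Hist1h2ap (left) and of the other 64 clustered histone genes summed (right), for run 1 precursors (open points) and whole marrow (filled points) by treatment; bars are group means. Hist1h2ap ranges from 743 to 2912 TPM in marrow and from 714 to 1316 TPM in precursors, and the 2 untreated marrow libraries lie at 530 and 223 TPM in the right panel.

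The other members were far lower. Over the 9 marrow libraries 14 of the 65 averaged under 1 TPM, 42 averaged 1 to 10 TPM, and 9 averaged 10 TPM or more, of which only Hist1h2ap exceeded 100 TPM. The precursors gave 14, 40 and 11 members in the same classes. The testis H2B gene Hist1h2ba was listed at 0 in all libraries of both sources, and the testis H1 gene Hist1h1t averaged 0.019 TPM in marrow. The testis H2A gene Hist1h2aa was not silent there and averaged 1.13 TPM. It had 1.25 and 1.51 TPM (combined), 2.07, 2.42 and 2.19 TPM (G-CSF), 0 TPM in each ZA library, and 0.275 and 0.435 TPM (untreated). These levels rest on at most 12.6 counts in a marrow library. In precursors Hist1h2aa averaged 0.034 TPM.

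Among linker histones, Hist1h1c, which encodes H1.2, led in marrow with 58.8 and 40.9 TPM (combined), 32.0, 34.8 and 38.4 TPM (G-CSF), 21.1 and 26.2 TPM (ZA) and 12.9 and 20.3 TPM (untreated). In precursors it had 5.50, 6.55 and 6.17 TPM (combined), 7.97, 6.97 and 6.80 TPM (G-CSF), 6.78 TPM (ZA) and 6.92 TPM (untreated), below every marrow library. On TPM its 4 marrow groups did not overlap, from the combined treatment at the top through G-CSF and ZA to untreated marrow. By edgeR on counts its log2 difference was 0.41 ± 0.24 (adjusted p = 0.323) for the combined treatment against untreated and 0.23 ± 0.22 (adjusted p = 0.520) for G-CSF against untreated, so it did not pass. Hist1h1d, which encodes H1.3, was next and went another way among the marrow libraries, with 3.29 and 2.31 TPM (combined), 5.10, 3.15 and 3.23 TPM (G-CSF), 7.81 and 5.88 TPM (ZA) and 10.7 and 2.74 TPM (untreated). Its untreated libraries were the highest and the second lowest of the 9.

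Of H2A genes after Hist1h2ap, Hist1h2af had 28.9 and 26.1 TPM (combined), 47.3, 26.4 and 20.3 TPM (G-CSF), 28.7 and 20.8 TPM (ZA) and 25.8 and 15.2 TPM (untreated) in marrow, where the G-CSF libraries spanned the combined and ZA groups. Of H2B genes, Hist1h2bc had 28.7 and 19.3 TPM (combined), 21.0, 21.2 and 16.1 TPM (G-CSF), 35.7 and 35.9 TPM (ZA) and 17.3 and 28.5 TPM (untreated), and on TPM the ZA libraries were above the rest. On TMM-scaled CPM they overlapped untreated marrow, at 48.6 and 45.0 CPM (ZA) and 46.5 and 33.8 CPM (untreated). The log2 difference by edgeR was 0.22 for ZA against untreated. The second H2B gene by level, Hist3h2ba on chromosome 11, had 12.0 and 15.8 TPM (combined), 10.7, 9.32 and 8.79 TPM (G-CSF), 8.48 and 10.6 TPM (ZA) and 6.19 and 14.9 TPM (untreated). In precursors its level was 0.304 to 1.43 TPM, and its mean of 0.672 TPM was the lowest there of the leading genes of each type. Within single libraries it was not always the lowest, as the H3 gene Hist1h3i had 0 TPM in combined precursor 3.

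Of H3 genes, Hist2h3b had 7.39 and 5.45 TPM (combined), 8.93, 2.34 and 6.34 TPM (G-CSF), 14.9 and 7.59 TPM (ZA) and 10.8 and 2.09 TPM (untreated), and its untreated libraries lay on either side of most others. Hist1h3i had 3.87 and 7.14 TPM (combined), 4.68, 2.79 and 6.24 TPM (G-CSF), 9.9997 and 4.95 TPM (ZA) and 10.4 and 3.49 TPM (untreated), with overlap between all groups. Among H4 genes, Hist1h4k had 23.2 and 16.2 TPM (combined), 34.2, 7.41 and 9.26 TPM (G-CSF), 54.0 and 34.3 TPM (ZA) and 65.5 and 7.89 TPM (untreated). Its untreated libraries were thus the highest and nearly the lowest of the 9. In precursors Hist1h4k was the highest member after Hist1h2ap, with 68.7, 53.9 and 66.4 TPM (combined), 44.0, 64.3 and 37.2 TPM (G-CSF), 53.7 TPM (ZA) and 60.4 TPM (untreated). Hist1h4i had 11.3 and 10.6 TPM (combined), 10.6, 11.5 and 14.7 TPM (G-CSF), 20.3 and 17.2 TPM (ZA) and 7.17 and 10.1 TPM (untreated) in marrow.

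Summed by type, H4 showed the spread most plainly. Marrow had 69.4 and 50.6 TPM of H4 (combined), 65.5, 40.03 and 49.2 TPM (G-CSF), 133 and 94.9 TPM (ZA) and 182 and 43.1 TPM (untreated). The ZA libraries lay above all 5 libraries given G-CSF, and the untreated libraries were the highest and the second lowest of the 9. The run 1 precursors had 94.9 to 161 TPM of H4. For H3 the untreated libraries held the same places, with 26.6 to 28.1 TPM (combined), 12.7 to 27.6 TPM (G-CSF), 36.2 and 48.7 TPM (ZA) and 59.1 and 15.9 TPM (untreated) in marrow against 47.1 to 66.9 TPM in precursors. H1, in which Hist1h1c dominates, ran instead at 48.4 to 69.8 TPM (combined), 44.9 to 49.1 TPM (G-CSF), 44.1 TPM in each ZA library, and 44.7 and 28.7 TPM (untreated), with 24.1 to 32.6 TPM in precursors.

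**Figure D2:**
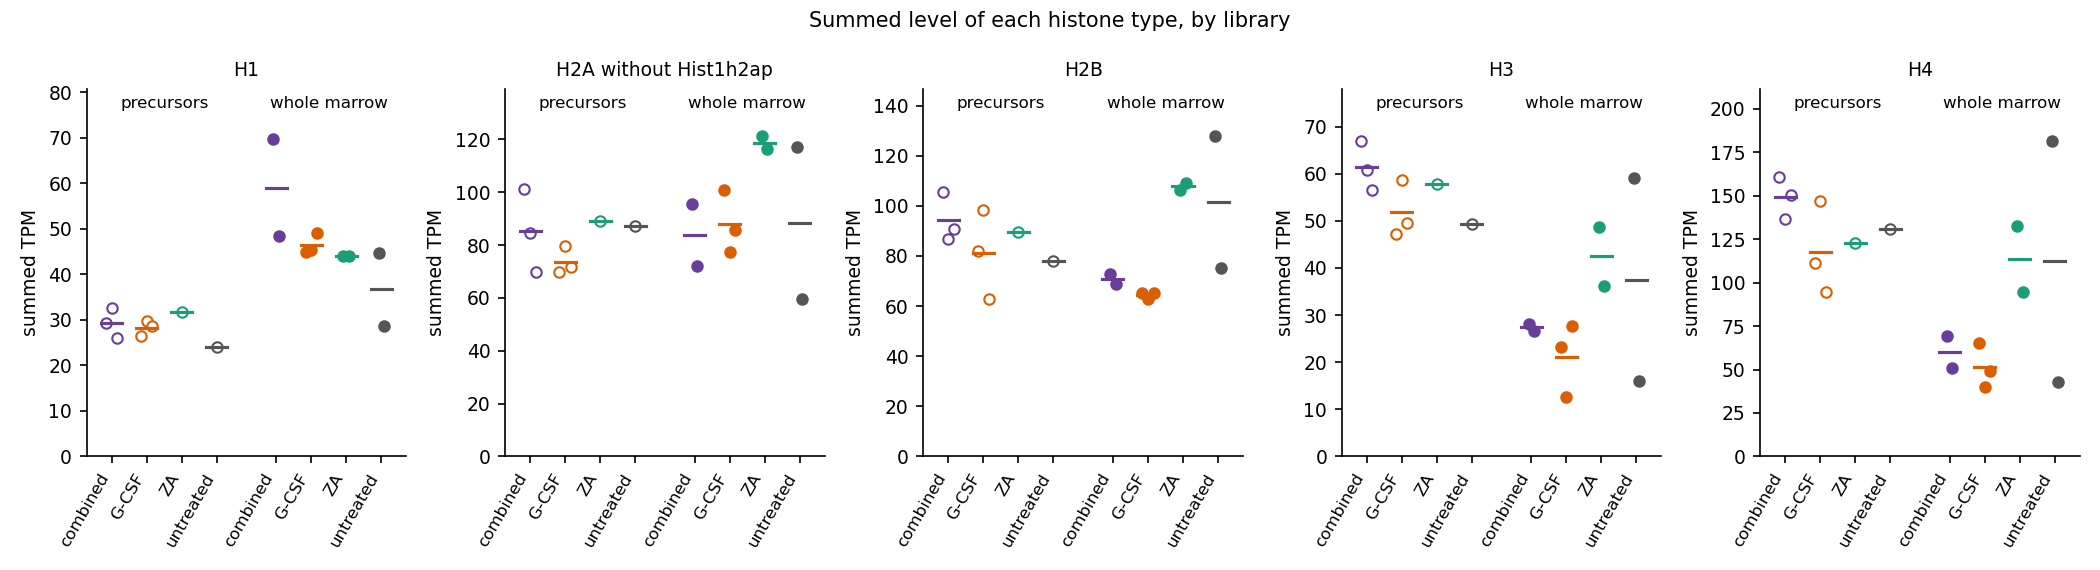
Summed TPM (y axis) of the members of each histone type per library, with Hist1h2ap left out of H2A, for run 1 precursors (open points) and whole marrow (filled points) by treatment; bars are group means. The 2 untreated marrow libraries lie apart from each other in every panel, at 182 and 43.1 TPM for H4, and H1 is lower in all 8 precursor libraries than in any marrow library but untreated 2.

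**Figure D3:**
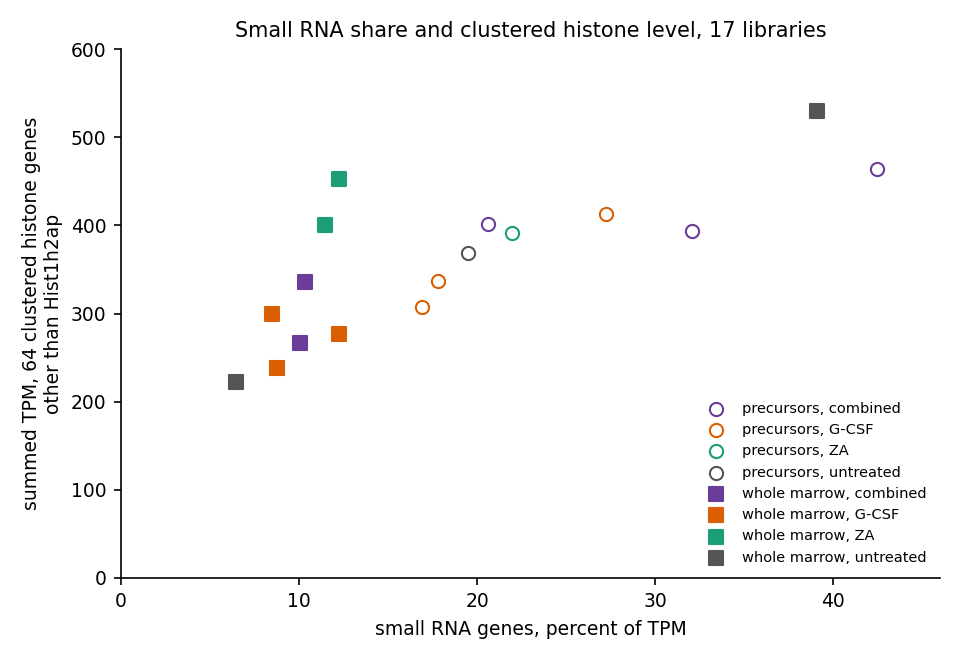
Share of TPM in genes annotated as small RNAs (x axis, percent) and summed TPM of the 64 clustered histone genes other than Hist1h2ap (y axis), 1 point per library. Untreated marrow replicate 1 lies at 39.1% and 530 TPM, near the precursors, and untreated marrow replicate 2 at 6.46% and 223 TPM.

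The plot of small RNA share against histone level shows how the libraries lay. The combined marrow libraries had 10.3% and 10.04% small RNA and 335 and 267 TPM of the 64 other members, the G-CSF libraries 8.46%, 8.76% and 12.2% with 299.8, 238 and 277 TPM, and the ZA libraries 12.3% and 11.4% with 453 and 401 TPM. In precursors, the combined libraries had 42.4%, 20.6% and 32.1% small RNA with 464, 401 and 394 TPM, and the G-CSF libraries 17.8%, 27.2% and 16.9% with 337, 413 and 308 TPM. Small RNAs and most histone mRNAs both lack a poly(A) tail. Whether the libraries were made from poly(A)-selected RNA is not given in the sources used here, and the part of the small RNA share in any histone difference was not tested.

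G-CSF against no treatment in whole marrow asks what the cytokine alone changes. Where clustered histone genes passed the test they were lower in G-CSF marrow, with 1 exception, and most of these calls rested on 1 untreated library. Of the 56 members that passed the filter on low counts, 13 fell and 1 rose at an adjusted p under 0.05 (edgeR quasi-likelihood test, Benjamini-Hochberg over 14737 genes), among 11.8% of all genes called, 6.91% lower and 4.93% higher. Without untreated replicate 1, 3 of 57 members were lower and none was higher, among 9.17% of 15870 genes called (5.89% lower), and without untreated replicate 2, 30 were lower, among 5.28% of 15835 genes called (3.47% lower). The median log2 difference over the tested members was -1.91 with all libraries, against 0.01 over all genes, but 0.13 without untreated replicate 1. The count was also 5 without G-CSF replicate 1, 5 without replicate 2 and 7 without replicate 3. In these fits 6.92%, 6.88% and 9.05% of all genes were called. On log2(TPM + 1) with limma, 6 were lower and 2 higher, among 16.7% of all genes called. On that scale the median of all genes was itself 0.64 higher in G-CSF marrow.

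The 3 members that passed with and without untreated replicate 1 were singled out after their values were seen. Hist2h2be, an H2B gene on chromosome 3, had 8.65, 7.75 and 8.12 TMM-scaled CPM in G-CSF marrow and 19.9 and 16.8 CPM in untreated marrow. Its log2 difference was -1.16 ± 0.20 (adjusted p = 0.00691), and -1.03 ± 0.25 (adjusted p = 0.0366) without untreated replicate 1. Hist3h2a, an H2A gene on chromosome 11, had 11.5, 9.31 and 13.8 CPM in G-CSF marrow and 25.3 and 25.6 CPM in untreated marrow, a log2 difference of -1.15 ± 0.21 (adjusted p = 0.00849), and -1.15 ± 0.26 (adjusted p = 0.0294) without that library. In both genes the groups did not overlap on this scale, and the untreated libraries were close to each other. On TPM they did overlap, with 1.54, 1.55 and 1.80 TPM of Hist2h2be in G-CSF marrow and 1.46 and 2.80 TPM in untreated marrow, and 2.62, 2.37 and 3.89 TPM of Hist3h2a in G-CSF marrow and 2.36 and 5.40 TPM in untreated marrow. Neither passed with limma on log2(TPM + 1), at -0.22 and -0.25. Of the 31-base words of Hist3h2a, 32.1% were shared with its neighbour Trim17.

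The H4 gene Hist1h4m, the last of these, had 0 counts in all 3 G-CSF libraries, against 24.4 and 2.61 CPM untreated. Set against 3 counts over the G-CSF group it was at least 113-fold lower, or at least 27.8-fold lower against untreated replicate 2 alone. Its near copy Hist1h4n, with which it shares 91.7% of its 31-base words, had 3.85, 3.12 and 4.53 CPM in G-CSF marrow and 5.20 and 3.10 CPM in untreated marrow. Summed, the pair had 8.73, 7.95 and 12.7 TPM in G-CSF marrow and 30.7 and 12.8 TPM in untreated marrow, so that untreated replicate 2 was level with a G-CSF library. How reads were split between these copies cannot be seen in the tables.

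In the other members called lower, Hist1h2bc apart, untreated replicate 1 was well above untreated replicate 2. Hist1h2bj had 0, 0.405 and 0 CPM in G-CSF marrow and 10.2 and 2.12 CPM in untreated marrow, Hist1h2bf had 0.192, 0.173 and 0 CPM against 8.36 and 0.326 CPM, and Hist1h4c had 0, 0.636 and 0 CPM against 13.3 and 1.31 CPM. The log2 differences of Hist1h3f (-4.58 ± 1.05), Hist1h4b (-3.30 ± 0.76), Hist1h2bg (-3.26 ± 0.68), Hist1h2ab (-2.98 ± 0.72), Hist1h1a (-2.75 ± 0.68) and Hist4h4 (-1.91 ± 0.46) came with adjusted p from 0.0159 to 0.0312 by edgeR. Without untreated replicate 1 they were -2.33, -2.06, -1.30, -1.47, -0.71 and -1.07, and none passed. Hist1h2bc passed with -1.04 ± 0.27 (adjusted p = 0.0357), and was -0.79 ± 0.32 (adjusted p = 0.159) without that library. The single member called higher, the H3 gene Hist2h3c1, had 82 counts over the G-CSF group and 2 over the untreated group. Scaled by library totals without TMM, the ratio was 15.1 (95% exact interval 4.04 to 126), or 7.87 (2.11 to 66.1) against untreated replicate 2 alone. By edgeR with TMM and all libraries its log2 difference was 3.46. However, all of its 31-base words also occur in the gene model Gm20634.

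The combined treatment against no treatment gave 1 member higher and 7 lower of 56 (7.72% of all genes called, 3.17% higher and 4.55% lower), with a median log2 difference of -2.15 against -0.01 over all genes. These comparisons share the untreated libraries. Hist2h2be had 8.47 and 10.02 CPM with the combined treatment and 19.9 and 16.8 CPM untreated, a log2 difference of -0.99 ± 0.22 (adjusted p = 0.0298), which turned to 0.13 on log2(TPM + 1). Hist1h3f had 2 counts over the combined group and 58 over the untreated group, a ratio of 0.0290 (95% exact interval 0.00343 to 0.110). Against untreated replicate 2 alone it was 2 against 8 counts, a ratio of 0.11 (0.0114 to 0.551). The others lower were Hist2h2bb (-4.00 ± 0.98), Hist1h2ab (-3.77 ± 0.90), Hist1h1a (-3.27 ± 0.81), Hist1h2bg (-3.08 ± 0.79) and Hist4h4 (-2.05 ± 0.53), with adjusted p from 0.0360 to 0.0473 by edgeR, and Hist2h3c1 was higher (58 against 2 counts, ratio 24.4, 95% exact interval 6.46 to 206). Against untreated replicate 2 alone the ratio of Hist2h3c1 was 12.8 (3.38 to 108). These ratios of counts were scaled by library totals without TMM. By edgeR with TMM and all libraries the log2 difference of Hist2h3c1 was 3.95.

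No member passed without untreated replicate 1, when the median was 0.09 (4.3% of all genes called), and 23 were lower without untreated replicate 2 (4.27% of all genes called, 2.95% lower). The count was 1 without combined replicate 1, 0 without combined replicate 3, 0 without G-CSF replicate 1 or 2, and 2 without either ZA replicate. Without G-CSF replicate 1 or 2 the share of all genes called was 5.85% or 5.36%. On log2(TPM + 1), 2 were higher and 2 lower, among 32.1% of all genes called, where the median of all genes was 0.90.

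ZA against no treatment moved no member past the threshold (0 of 56, among 0.0339% of all genes). At an unadjusted p under 0.05 there were 3, and DESeq2 also called 0. The median log2 difference was -0.64 with all libraries and 1.13 without untreated replicate 1, when 52 of 57 members had a difference above 0 and none passed (0.126% of all genes). By size the leading members were Hist1h4c (-1.88 ± 1.24), Hist1h4f (-1.83 ± 1.25) and Hist1h3f (-1.80 ± 1.05), with adjusted p from 0.604 to 0.648 by edgeR, and without that library they stood at 0.58, 2.85 and 0.44. Hist1h4f had 3.45 and 1.47 CPM with ZA and 17.4 and 0.326 CPM untreated, so both ZA libraries lay between the untreated ones. The direction for ZA was thus set by which untreated library was used.

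**Figure D4:**
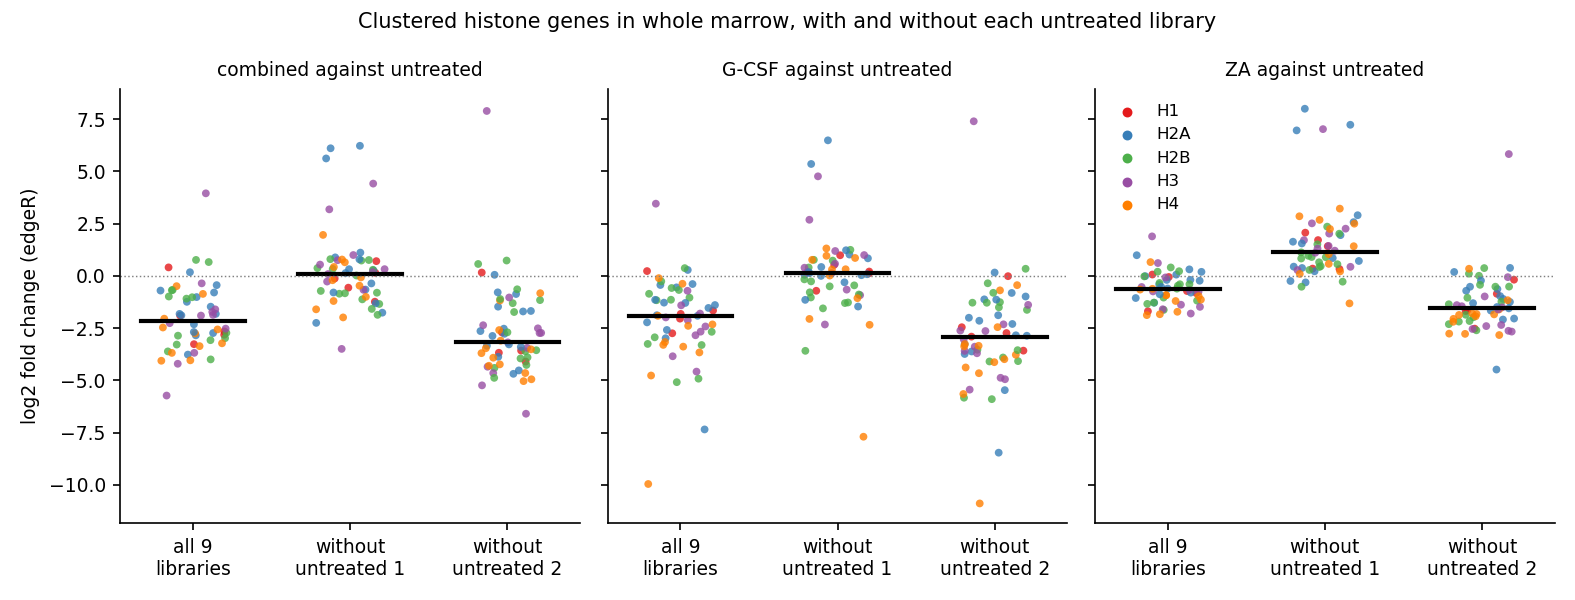
Log2 fold change by edgeR (y axis) of each tested clustered histone gene in whole marrow against untreated, 1 point per gene coloured by histone type, with all 9 libraries and with either untreated library left out; bars are medians. Without untreated replicate 1 the medians move to 0.09 (combined), 0.13 (G-CSF) and 1.13 (ZA), and without untreated replicate 2 to -3.18, -2.91 and -1.55.

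The combined treatment against ZA asks what G-CSF adds to ZA. It uses the untreated libraries only in the filter on low counts, the scaling and the estimate of the spread. Members were mostly lower: 50 of 56 log2 differences were below 0, with a median of -1.60 against -0.01 over all genes, and in 44 both combined libraries lay below both ZA libraries, as in 26.6% of all genes tested. Only 2 passed the test, both lower (4.33% of all genes called, 2.46% called lower), and 18 had an unadjusted p under 0.05. Hist1h4i had 9.35 and 8.20 CPM with the combined treatment and 28.4 and 22.2 CPM with ZA, a log2 difference of -1.52 ± 0.27 (adjusted p = 0.0147). Hist1h2bc had 23.1 and 14.5 CPM with the combined treatment and 48.6 and 45.0 CPM with ZA, a log2 difference of -1.31 ± 0.30 (adjusted p = 0.0419). By type the medians were -1.91 in H4, -1.85 in H1, -1.48 in H2B, -1.23 in H3 and -1.09 in H2A, whereas Hist1h1c (0.34 ± 0.24, adjusted p = 0.529) and Hist1h2ap (-0.14 ± 0.20, adjusted p = 0.803) had values apart from those medians and did not pass.

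Without untreated replicate 1 the median for this comparison was -1.56 and 3 members passed, all lower and the 2 above among them (4.17% of all genes called, 2.27% lower). The count was 0 without combined replicate 3 or ZA replicate 2, 1 without combined replicate 1, ZA replicate 3, G-CSF replicate 1 or G-CSF replicate 2, and 9, all lower, without untreated replicate 2 (4.5% of all genes called, 2.58% lower). On log2(TPM + 1) 1 member was lower, where the median of all genes was 0.59 and the share of all genes called is not given here. In the same libraries the 22 S phase genes summed to 4622 and 4705 CPM with the combined treatment and 3985 and 4678 CPM with ZA, and none passed, nor did any of 12 genes of G2 and mitosis. Of 13 erythroid genes 3 were lower. The 8 monocyte genes (2 lower) summed to 517 to 575 CPM with the combined treatment and 1128 to 1264 CPM with ZA, and the 12 neutrophil genes (2 lower) to 22968 to 23084 CPM with the combined treatment and 39799 to 39988 CPM with ZA. None of these genes was at 0 in any marrow group. The 6 platelet genes (none called) summed to 923 to 1342 CPM with the combined treatment and 100.46 to 716 CPM with ZA. The part of these cell types in the histone differences was not tested.

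The combined treatment against G-CSF asks what ZA adds to G-CSF, and no member passed (0 of 56, among 0.00679% of all genes and 0.0063% without untreated replicate 1, 2 with an unadjusted p under 0.05, and 1 by DESeq2). The median log2 difference was -0.12, against -0.01 over all genes, and lay between -0.56 (without combined replicate 1) and 0.07 (without combined replicate 3) with 1 library left out. The leading members were Hist1h2bl (-2.05 ± 0.85, adjusted p = 0.451), Hist1h2an (-1.46 ± 0.91, adjusted p = 0.596) and Hist2h2aa2 (-1.39 ± 1.13, adjusted p = 0.700). Hist1h2bl had 0.788 and 0.683 CPM with the combined treatment and 5.00, 1.56 and 2.83 CPM with G-CSF. Hist2h2aa2 had no 31-base word of its own, and with Hist2h2aa1, of which 89.7% of words are shared with other genes, it summed to 20.8 and 21.2 TPM with the combined treatment and 24.5, 20.5 and 28.3 TPM with G-CSF, which overlap.

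In the sorted precursors of run 1, the combined treatment was set against G-CSF with 3 libraries each. No member passed (0 of 62, as no gene of 18779 did, 0.0% called), 8 members had an unadjusted p under 0.05 and DESeq2 called 1. By sign, 52 of 62 were above 0, with a median of 0.53 against 0.01 over all genes, and without combined replicate 1 they were 37 of 61 and 0.22. In 9 members the combined libraries were all above the G-CSF libraries, as in 6.35% of all genes, and in none were they all below, against 6.37% of all genes. Hist1h3h, an H3 gene, had 8.69, 4.71 and 6.79 CPM with the combined treatment and 2.01, 2.15 and 2.91 CPM with G-CSF, a log2 difference of 1.51 ± 0.30 (adjusted p = 0.667). It is the member that DESeq2 called. However, 94.2% of the 31-base words of Hist1h3h were shared with other genes, and 85.3% occurred in Hist1h3i. That near copy had 5.31, 0.421 and 0 CPM with the combined treatment and 2.85, 4.55 and 2.13 CPM with G-CSF. How reads were split between these copies was not tested.

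Hist2h4, an H4 gene, had 3.51, 2.61 and 4.12 CPM with the combined treatment and 1.09, 1.55 and 0.655 CPM with G-CSF, a log2 difference of 1.63 ± 0.40 (adjusted p = 0.687). Hist1h4h stood at 1.25 ± 0.50 (adjusted p = 0.697) with overlapping groups. Hist1h2ap went the other way without passing (-0.14 ± 0.09, adjusted p = 0.771). The 22 S phase genes summed to 4201 to 4428 CPM with the combined treatment and 4140 to 4351 CPM with G-CSF, and none of them passed. The small RNA share was 20.6% to 42.4% with the combined treatment and 16.9% to 27.2% with G-CSF, as in the plot of small RNA share, and its part was not tested.

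Precursors with G-CSF (alone or combined, 6 libraries) against those without (1 ZA and 1 untreated library, assumed to vary like the other groups) gave 0 of 62 members past the threshold, as for all genes (0.0% called), with 1 member at an unadjusted p under 0.05 and 0 by DESeq2. The median was 0.29 against 0.02 over all genes, 0.14 without G-CSF replicate 2, 0.16 without combined replicate 1 and 0.0043 on log2(TPM + 1). The leading members were Hist1h4c (1.29 ± 0.71), Hist1h3i (1.17 ± 1.51) and Hist1h2ah (0.89 ± 0.53), each with an adjusted p of 0.9999 by edgeR. Hist1h3i had 5.31, 0.421, 0, 2.85, 4.55 and 2.13 CPM in the libraries given G-CSF and 1.32 and 0.902 CPM in the other libraries, a spread that covers any difference.

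Precursors against whole marrow in run 1 compares cell sources within treatments, with 5 precursor and 3 marrow libraries. The precursor libraries matched their label: Csf1r, the gene of CD115, was at 409 to 471 CPM in precursors and 94.9 to 171 CPM in marrow, and 5 genes of the excluded lineages summed to 144 to 209 CPM in precursors and 1568 to 2156 CPM in marrow. The 13 erythroid genes summed to 206 to 1121 CPM in precursors and 123930 to 230530 CPM in marrow. Of 60 members tested 11 were lower in precursors and none higher, among 44.6% of 16185 genes called (23.5% lower), a larger share than among the members (18.3%). The median log2 difference was -0.02, against 0.05 over all genes, and lay between -0.60 (without marrow G-CSF 2) and 0.52 (without marrow ZA 2) with 1 library left out. On log2(TPM + 1), where the median of all genes was 0.82 higher in precursors, 20 members were higher and 6 lower. The share of all genes called on that scale is not given here, so these counts cannot be read as particular to the members.

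**Figure D5:**
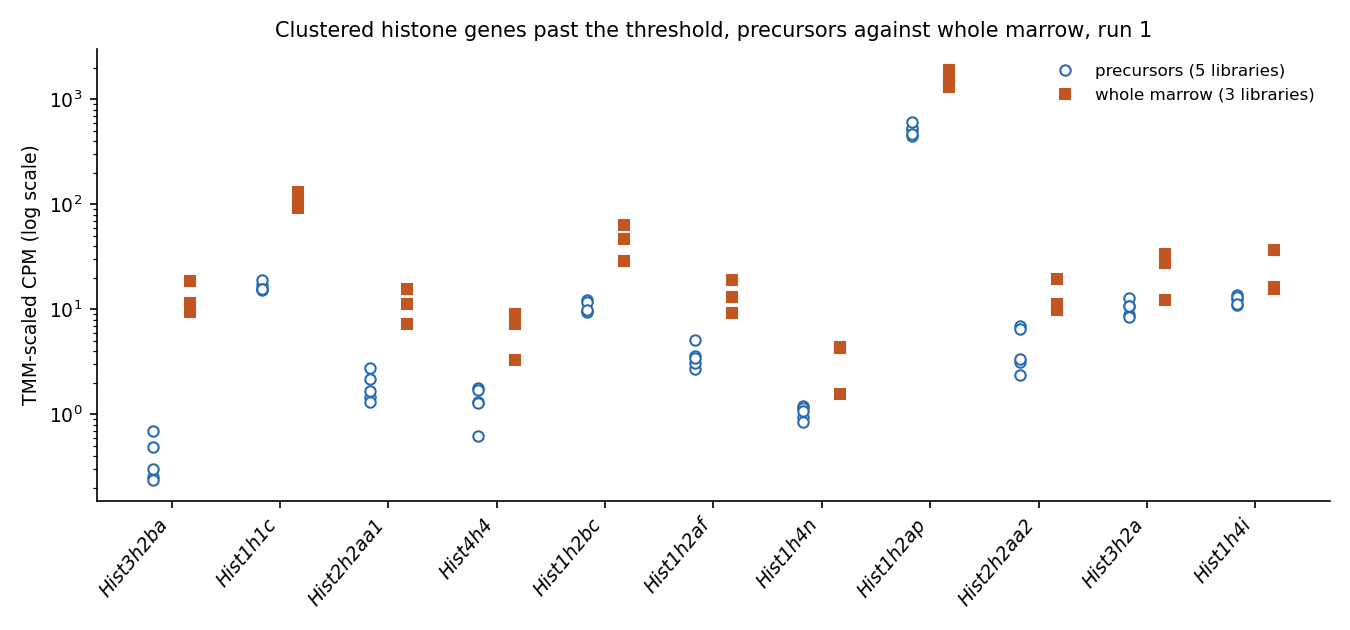
TMM-scaled CPM on a log axis (y) of the 11 clustered histone genes past the threshold, in 5 precursor libraries (open circles) and 3 whole marrow libraries (squares) of run 1. Precursor libraries lie below all marrow libraries in each gene except Hist3h2a, where the highest precursor library has 12.9 CPM and the lowest marrow library 12.2 CPM.

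Members lower in precursors held the linker histone gene that led in marrow and genes of the small clusters. Hist3h2ba had 0.252, 0.696, 0.491, 0.237 and 0.301 CPM in precursors and 9.52, 11.5 and 18.5 CPM in marrow, a log2 difference of -5.09 ± 0.47 (adjusted p = 0.000161). Hist1h1c had 17.1, 19.0, 15.3, 15.7 and 15.6 CPM in precursors and 130, 105 and 91.9 CPM in marrow, a log2 difference of -2.77 ± 0.12 (adjusted p = 6.88e-06). Both were separated by several times the spread within either source. Hist1h2ap had 511, 530, 602, 446 and 466 CPM in precursors and 1539, 1912 and 1302 CPM in marrow, a log2 difference of -1.67 ± 0.14 (adjusted p = 0.000117), and its promoter and that of Hist1h1c are printed above.

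Hist4h4, the lone member on chromosome 6, was at -2.04 ± 0.45, Hist1h2bc at -1.98 ± 0.22, Hist1h2af at -1.93 ± 0.31 and Hist1h4n at -1.71 ± 0.35, with adjusted p from 0.000427 to 0.00891 by edgeR. The similar genes Hist2h2aa1 (-2.48 ± 0.37) and Hist2h2aa2 (-1.51 ± 0.36) summed to 8.63 to 14.5 TPM in these precursors and 20.5, 29.1 and 18.6 TPM in marrow. Hist1h4n and its near copy Hist1h4m summed to 13.7 to 21.4 TPM in these precursors and 7.95, 20.2 and 12.8 TPM in marrow, which overlap. How reads were split between that pair was not tested. Hist3h2a (-1.10 ± 0.34) and Hist1h4i (-0.73 ± 0.24) passed at adjusted p of 0.0334 and 0.0408 by edgeR. On log2(TPM + 1) Hist1h4i turned to 0.15, and Hist4h4 was below that scale's filter, while the other 9 kept their sign there. Of these 11, Hist1h1c, Hist3h2ba, Hist3h2a, Hist4h4 and Hist1h4i have annotated transcripts that run more than 100 bases past the stem-loop, as did 21 members in all. No H3 member passed, and H3 and H4 had medians of 0.30 and 0.21 on the log2 scale.

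In run 2 the same contrast called 0 members, as it called none of all genes, and 10 of the 11 had the opposite sign (all but Hist2h2aa1, at -0.01). It holds the libraries labelled untreated 2 and G-CSF 2, whose H4 levels were like those of the other source, so the labels behind these signs are in doubt. The run 2 libraries labelled untreated precursor 7 and ZA precursor 7 also had low H4 levels, at 66.0 and 50.0 TPM. The run 1 precursors had 94.9 to 161 TPM. Markers of other cell types also differed between sources in run 1, with 13 of 13 erythroid, 11 of 11 B lineage and 6 of 6 platelet genes lower in precursors and 8 of 8 monocyte genes higher. Of 22 S phase genes 9 were lower and 2 higher, and of 12 genes of G2 and mitosis 9 were lower and 1 higher. Their part in the histone differences was not tested.

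Genes that make, process and carry histones were followed as 31 genes: 13 of histone mRNA transcription and processing, 7 chaperones and 11 replacement variants outside the clusters. For G-CSF against untreated in marrow, 2 were higher and 1 lower. H1fx, a linker variant, was at 2.07 ± 0.34 (adjusted p = 0.00588), Nasp, a histone chaperone, at 0.76 ± 0.16 (adjusted p = 0.0159) and Casp8ap2, a part of the histone locus body, at -0.67 ± 0.17 (adjusted p = 0.0347, but 0.13 on log2(TPM + 1)). The combined treatment against untreated gave H1fx at 1.75 ± 0.36 (adjusted p = 0.0221), Casp8ap2 at -1.19 ± 0.19 (adjusted p = 0.00705) and H3f3a, which encodes H3.3, at -0.82 ± 0.21 (adjusted p = 0.0497, and 0.38 on log2(TPM + 1)). Against ZA the combined treatment gave Casp8ap2 at -0.90 ± 0.19 (adjusted p = 0.0311), and the remaining treatment comparisons in marrow and precursors called none of the 31.

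Slbp, which binds the stem-loop, had 156 and 160 TPM (combined), 105, 127 and 130 TPM (G-CSF), 79.5 and 66.0 TPM (ZA) and 34.2 and 79.0 TPM (untreated) in marrow, and 63.8 to 117 TPM in the 8 precursor libraries. Npat, a coactivator of histone genes, had 0.514 to 2.73 TPM in marrow and 1.99 to 5.32 TPM in precursors. The replacement variant gene H2afz (H2A.Z) had 394 to 1240 TPM in marrow and 549 to 1216 TPM in precursors, and H3f3b (H3.3) had 116 to 416 TPM in marrow and 164 to 323 TPM in precursors. None of these 4 passed in a comparison of treatments.

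Between precursors and marrow 8 of the 31 were higher and 8 lower (44.6% of all genes called). Of the processing genes 7 of 13 were higher, with Zfp473 at 0.98 ± 0.27 and Lsm11, both tied to the U7 particle that cuts histone mRNA, at 0.84 ± 0.16, Hinfp, an H4 gene activator, at 0.79 ± 0.21 and Cpsf3, the nuclease, at 0.53 ± 0.10, and with Casp8ap2 (0.70 ± 0.19), Cstf2 (0.48 ± 0.15) and Srrt (0.41 ± 0.12). Slbp was lower at -0.83 ± 0.11 (adjusted p = 0.000847, but 0.06 on log2(TPM + 1)) and Cpsf2 at -0.49 ± 0.11 (0.35 on log2(TPM + 1)). Among chaperones Asf1a (-0.99 ± 0.13) and Chaf1b (-0.55 ± 0.16, 0.32 on log2(TPM + 1)) were lower. Of the variants H2afy (macroH2A) was higher at 1.43 ± 0.13, and H3f3a (-0.95 ± 0.11), H3f3b (-0.69 ± 0.09, 0.20 on log2(TPM + 1)), Cenpa (-0.40 ± 0.12, 0.49 on log2(TPM + 1)) and H2afx (-0.34 ± 0.11, 0.54 on log2(TPM + 1)) were lower, all with adjusted p of at most 0.0376 by edgeR.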

How the data were processed

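Whole marrow and sorted precursors were sequenced as total RNA, per the labels' protocols, and quantified with Salmon against mm10, per the submitters' processing notes. Strand use and poly(A) selection are not given in the sources used here. The authors deposited estimated counts and TPM per Ensembl gene. After rounding, edgeR 4.0.16 in R 4.3.3 fitted the estimated counts (robust quasi-likelihood, TMM), after a filter with a count minimum of 10 and a total of 15, with Benjamini-Hochberg adjustment over all genes and a threshold of 0.05. DESeq2 1.42.0, limma 3.58.1 on log2(TPM + 1) and log2(TPM + 0.1), other scalings, no filter, a replicate block and leaving out each library were alternatives. The scripts were tested on simulated data. Symbols came from GENCODE vM21, which matched 99.122% of IDs, and shared words had 31 bases. The members and lists were chosen with earlier results of these data known. Named genes were the 2 highest of each type in marrow and up to 10 called in each direction by size, or, where none was called, the 3 largest by size among those averaging at least 1 CPM, and members called beyond those were added after their values were seen. CPM values are scaled by TMM within each fit, so the marrow libraries have other values in the comparison with precursors. Ratios and bounds from summed counts were scaled by library totals without TMM. Intervals and floors cover counting error only.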

Additional observations from a re-analysis of the deposited data

Results flagged for a closer look

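Hist1h2an, an H2A gene, had a log2 difference of -1.46 for the combined treatment against G-CSF in whole marrow, with both combined libraries below all 3 G-CSF libraries, and of 0.49 in run 1 precursors, with all 3 combined libraries above all 3 G-CSF libraries. It passed in neither, and the difference between the sources was not tested. In precursors 6.35% of all genes had every combined library above every G-CSF library, and the share for marrow is not given here. Of the 31-base words of Hist1h2an, 89.0% were shared with other genes, and 81.5% occurred in Hist1h2ah. In marrow Hist1h2ah had 0.689 and 1.025 CPM (combined) and 0.769, 0.462 and 0.283 CPM (G-CSF). How reads were split between these genes was not tested.

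Hist1h2al, an H2A gene annotated as a pseudogene and so no member, had 19.4 TPM in the run 2 library labelled combined precursor 3, 8.13 TPM in G-CSF precursor 1 and 19.7 TPM in G-CSF precursor 2, in data that the comparisons do not use. The run 1 precursors had 0.395 to 1.84 TPM. The library labelled G-CSF precursor 2 had 40.8 TPM of H4 genes, near the 40.03 TPM of whole marrow G-CSF 2, whose Hist1h2al level was 22.3 TPM, so its label is in doubt.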

How the results depend on the processing

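Counts of called members changed with the untreated marrow library in the fit, with other libraries left out and with the filter. So did the share of all genes called. For G-CSF against untreated it was 11.8% in the main fit, 16.6% with DESeq2, 11.3% with no filter and 10.2% with the 2 groups alone. On log2(TPM + 1) and log2(TPM + 0.1) it was 16.7% and 18.8%. For the combined treatment against untreated these shares were 7.72%, 11.9%, 8.92% and 5.62%, and 32.1% and 32.7% on the TPM scales. For the other comparisons shares by setting are not listed here, so their counts by setting cannot be set against all genes. For G-CSF against untreated (14 called) the count was 24 with DESeq2, 41 with no filter, 8 on log2(TPM + 1), 6 on log2(TPM + 0.1), 8 with the 2 groups alone and 3 to 30 with 1 library left out. For the combined treatment against untreated (8 called) it was 20, 36, 4, 5 and 0 under the same settings and 0 to 23 with 1 library left out. For combined against ZA (2 called) it was 1 with library totals, 19 with no filter, 1 and 0 on the TPM scales, 1 with the 2 groups alone and 0 to 9 with 1 library left out. For combined against G-CSF it was 1 with DESeq2, 4 with no filter and 1 on log2(TPM + 0.1) in marrow, and 1 with DESeq2 in precursors. For precursors against marrow (11 called) it was 26 on either TPM scale, 0 in run 2 and 9 to 12 with 1 library left out. Within marrow and within run 1 precursors, same-numbered libraries showed correlations of deviations of at most 0.112. With so few libraries in a group this cannot exclude pairing, and pairs between marrow and precursors were not checked. With the replicate block the counts were 4 for G-CSF and 0 for the combined treatment against untreated, and 6 for precursors against marrow.

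Directions turned as follows, and the cause was not tested. With 1 library left out, ZA against untreated ranged from -2.67 to 0.44 in Hist1h3f, -2.76 to 0.58 in Hist1h4c and -2.83 to 2.85 in Hist1h4f, and Hist1h3i in precursors with against without G-CSF from -0.38 to 1.46. Hist1h4f was 0.12 with the replicate block, 0.0215 on log2(TPM + 1) and 0.27 on log2(TPM + 0.1), and Hist1h3i -0.29 with the block and -0.11 on log2(TPM + 0.1). On log2(TPM + 1) and log2(TPM + 0.1), Casp8ap2 was 0.13 and 0.18 for G-CSF against untreated, and for the combined treatment Hist2h2be was 0.13 and 0.20, H3f3a 0.38 and 0.38, and Casp8ap2 0.0046 on the second. For precursors against marrow these scales gave Hist1h4i 0.15 and 0.16, Slbp 0.0577 and 0.0585, H3f3b 0.20 and 0.20, Chaf1b 0.32 and 0.34, Cenpa 0.49 and 0.49, Cpsf2 0.35 and 0.40, and H2afx 0.54 and 0.55. Library totals gave Chaf1b 0.0549, Cenpa 0.22, Cpsf2 0.12 and H2afx 0.27. In run 2, members turned to 0.99 (Hist3h2ba), 0.53 (Hist1h1c), 0.34 (Hist4h4), 0.53 (Hist1h2bc), 0.83 (Hist1h2af), 0.14 (Hist1h4n), 0.45 (Hist1h2ap), 0.14 (Hist2h2aa2), 0.11 (Hist3h2a) and 0.32 (Hist1h4i). The other genes there were 0.23 (Slbp), -0.50 (H2afy), 0.0683 (H3f3b), 0.22 (Asf1a), 0.0288 (Cenpa), -0.0243 (Cstf2), -0.15 (Srrt), 0.0645 (Cpsf2), -0.0816 (Lsm11), -0.68 (Zfp473), 0.12 (H2afx), -0.14 (Cpsf3) and 0.20 (H3f3a).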

Other observations

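In whole marrow Hist1h2al had 62.0 and 52.0 TPM with the combined treatment, 32.8, 22.3 and 33.8 TPM with G-CSF, 2.79 and 1.23 TPM with ZA, and 0.951 and 1.24 TPM untreated. All 5 libraries given G-CSF were above all 4 others. On log2(TPM + 1) the median of all genes was itself 0.64 higher with G-CSF and 0.90 higher with the combined treatment, each against untreated. The share of all genes split in this way is not given here. Shared words were not counted for Hist1h2al, and how reads were split between it and other H2A genes was not tested.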
